A study of Homo sapiens with 2 samples.

Results

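The genes of the human mitochondrial chromosome and their near-identical copies in a stretch of chromosome 1 were examined in RNA sequencing data from the B-cell precursor acute lymphoblastic leukemia (B-ALL) cell lines REH and 697. They were chosen by name and position, namely the 37 genes of chromosome M, whose symbols begin with MT-, and the chromosome 1 copies MTND2P28, MTCO1P12, MTCO2P12, MTATP8P1, MTATP6P1 and MTCO3P12. These are 43 of the 57773 genes in the count files. In REH the ETV6/RUNX1 fusion is present and the remaining wild type ETV6 allele is deleted, whereas 697 does not have that fusion. Both are established lines that were grown without treatment in RPMI medium with fetal bovine serum, and each is represented by 1 library from total RNA. There are therefore no replicates, no p-value is given, and each ratio compares these libraries and not the lines in general.

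The mitochondrial chromosome encodes core subunits of respiratory chain complexes I, III and IV and of ATP synthase (complex V), the rRNAs of the mitochondrial ribosome and the tRNAs used for their translation. Both strands are transcribed as long precursors, from which tRNAs are cut out between the neighbouring rRNAs and mRNAs, and most of the mRNAs receive a poly(A) tail. Fragments of this chromosome have been inserted into nuclear chromosomes during evolution, and the insertion on chromosome 1 is long and still close in sequence to its source.

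The REH library held 45188375 gene reads and the 697 library 41097497. Reads that mapped to several places were left out of gene counts and made up 10.8% of all reads in REH and 15.4% in 697. Levels are given as CPM, reads per 1000000 gene reads after TMM scaling of the library totals, and ratios are log2 of REH over 697, so that a negative ratio is a higher level in 697. Brackets hold 95% intervals, which cover counting error only. Summed over genes, the strand columns were nearly equal (ratio 1.005 in REH and 1.008 in 697), although the labels describe stranded, ribodepleted libraries. The study's methods describe poly(A) purification instead. Of the 10 B-lineage precursor markers, 9 reached 10 reads in REH and all 10 did in 697. Of them, 5 had ratios above 0 and 5 below, from CD79B, with 481 CPM in REH and 120 CPM in 697, to VPREB1, with 3 reads in REH and 10039 in 697. Summed myeloid markers lay at 253 CPM in REH and 2.25 CPM in 697. Nearly all of the former was MPO, with 252 CPM in REH and 0.325 CPM in 697. CSF1R had 30 and 61 reads, CD14 29 and 8, LYZ 1 and 2, and ELANE 0 in both. Summed erythroid and platelet markers lay at 0 CPM in REH and 0.0271 CPM in 697, and summed T lineage markers at 0.935 CPM in REH and 0.298 CPM in 697. The part of these differences in the mitochondrial values was not tested.

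Mitochondrial RNA took a larger share of the 697 library. The 37 chromosome M genes had 1407076 reads in REH, or 3.11% of gene reads (3.109% to 3.119%), and 2517787 reads in 697, or 6.13% (6.119% to 6.134%). On the TMM scale this was 2.43-fold more in 697, a log2 ratio of -1.28 [-1.287 to -1.281]. Unscaled totals gave -0.98. They also moved the median ratio of all compared genes from 0.05 to 0.36. The distance of the mitochondrial sum from that median was -1.34. TMM, DESeq2 and no scaling each apply a single factor per library, so this distance is the same under all of them by construction. In relative counts, more mitochondrial RNA per cell and less of other RNA cannot be told apart.

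The difference was spread over nearly all mitochondrial genes that had enough reads. Of the 43 genes, 36 were compared because REH, 697 or both gave 10 reads or more. The 7 that were not are all tRNA genes. Of the 36, 27 were higher in 697 by a log2 ratio of at least 1, which was reached by 17.4% of the 19145 genes compared in the whole series. None of the 36 was higher in REH by that margin, against 22.4% of all compared genes. None passed a log2 ratio of 2 in either direction, where 8.15% of all compared genes were higher in 697 and 12.5% were higher in REH. The single strand columns were filtered by their own reads, so the members compared there are not the same 36. In them, 2 members (gene's strand) and 4 (opposite strand) were higher in 697 by a log2 ratio of at least 2. The shares of all genes in those columns are not given here. Ratios were below 0 for 35 of the 36 (97.2%), against 47.9% of all compared genes. The exception was MT-TE, the tRNA gene for glutamic acid, with 18 reads in REH, 10 in 697 and a counting interval that spans 0. The median ratio of all compared genes was 0.05. The chromosome M genes share precursors, so they are not independent measurements of a difference between the lines.

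**Figure D1:**
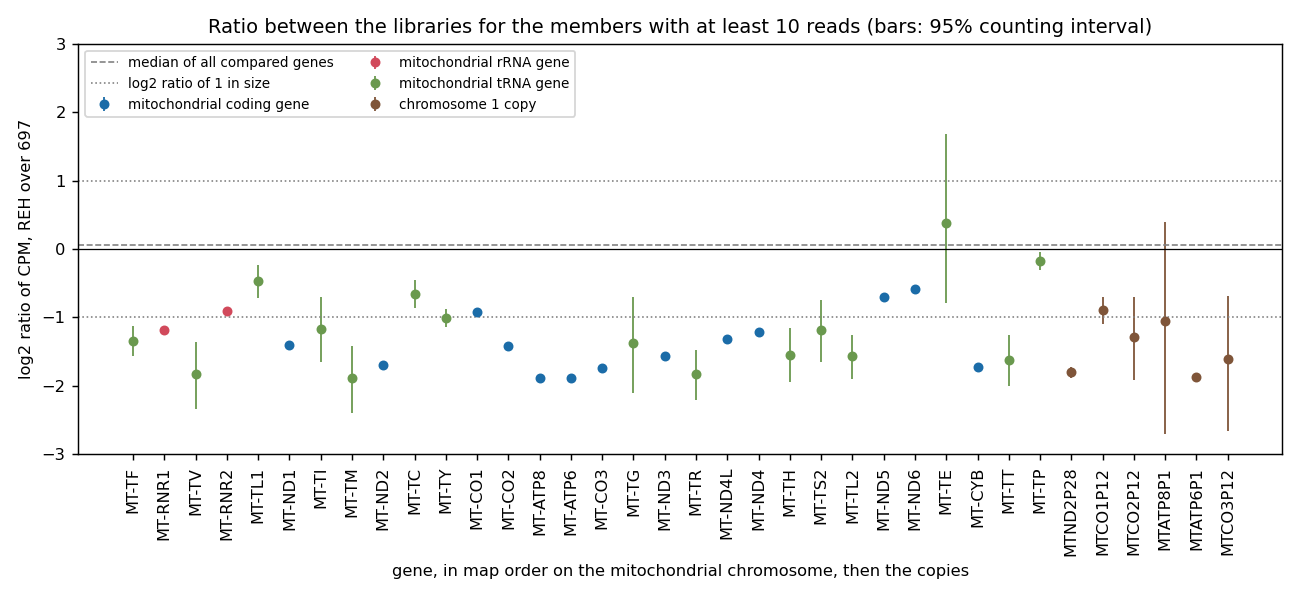
The log2 ratio of REH over 697 is plotted for each of the 36 compared genes, with 95% counting intervals as bars, in map order and coloured by class, with the chromosome 1 copies last. All points but MT-TE lie below 0, coding genes lie between -1.89 (MT-ATP6) and -0.58 (MT-ND6), and MT-TE and MTATP8P1, with few reads, have wide intervals that span 0.

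Among the coding genes, those of ATP synthase differed most and the last genes of complex I least. All 13 were higher in 697, with a median of -1.42. In 10 of them the log2 ratio was at least 1 in size, against 17.4% of all compared genes. MT-ATP6, the membrane subunit of ATP synthase that forms part of its proton path, had 65309 reads in REH (1299 CPM) and 178323 in 697 (4827 CPM), a ratio of -1.89 [-1.91 to -1.88]. Its partner subunit MT-ATP8 had 19440 reads (387 CPM) and 52778 (1428 CPM), a ratio of -1.89 [-1.91 to -1.86]. These ratios are 3.71-fold and 3.69-fold higher levels in 697 and do not differ beyond counting error.

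MT-CYB, cytochrome b and the single mitochondrially encoded subunit of complex III, had 79263 reads in REH and 192703 in 697, a ratio of -1.73 [-1.74 to -1.71]. The core subunits of complex IV (cytochrome c oxidase) were unequal. MT-CO3 had 139823 reads in REH (2782 CPM) and 342242 in 697 (9263 CPM), a ratio of -1.74. MT-CO2, which accepts electrons from cytochrome c, had 150653 and 296230 reads, a ratio of -1.42. MT-CO1, the subunit that reduces oxygen, had 284417 reads in REH (5658 CPM) and 396562 in 697 (10733 CPM), a ratio of only -0.92 [-0.931 to -0.917]. The counting intervals of the 3 do not overlap, so within 1 complex the excess in 697 ran from 1.90-fold for MT-CO1 to 3.33-fold for MT-CO3.

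The 7 complex I subunits spanned the widest range. Among the membrane arm subunits, MT-ND2 had 44337 reads in REH and 105974 in 697, a ratio of -1.70, and MT-ND3 had 17713 and 38396 reads, a ratio of -1.56. MT-ND1, which lines the ubiquinone pocket, had 45231 and 88074 reads (-1.41), MT-ND4L 26886 and 49254 (-1.32), and MT-ND4 200729 and 341450 (-1.21). The proton-pumping subunit MT-ND5 had 111912 reads in REH (2226 CPM) and 134151 in 697 (3631 CPM), a ratio of -0.71 [-0.717 to -0.694]. MT-ND6, the 1 coding gene of the chromosome that is annotated on the minus strand, had 23755 reads (473 CPM) and 26178 (709 CPM), a ratio of -0.58 [-0.610 to -0.559]. MT-ND5 and MT-ND6 lie next to each other on opposite strands, and both differed by less than 2-fold between the libraries.

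By strand, the 12 plus-strand coding genes summed to a ratio of -1.35 [-1.350 to -1.343]. The 9 genes annotated on the minus strand, MT-ND6 and 8 tRNA genes, summed to -0.59 [-0.611 to -0.562]. MT-ND6 held 23755 of their 26025 reads in REH and 26178 of 28719 in 697, so this sum is close to MT-ND6 alone. The minus-strand tRNA genes alone gave -0.61 and the plus-strand ones -1.33. Of the 8 on the minus strand, 4 had 0 reads in the either-strand column. MT-TP and MT-TY held most of the reads of the others, and their ratios were -0.18 and -1.01. The minus-strand sums thus rest on few genes. Since the strand columns of these libraries were nearly equal over all genes, these sums group genes by their annotated strand and do not separate reads by strand.

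Both mitochondrial rRNAs were higher in 697. MT-RNR2, the large subunit rRNA, had 180365 reads in REH (3588 CPM) and 247747 in 697 (6706 CPM), a ratio of -0.90 [-0.911 to -0.893]. MT-RNR1, the small subunit rRNA, had 13793 reads (274 CPM) and 22999 (622 CPM), a ratio of -1.18 [-1.21 to -1.15]. Per kb of gene length MT-RNR2 lay at 2302 CPM in REH and 4301 in 697, and MT-RNR1 at 288 and 653. The rRNAs made up 13.8% of mitochondrial reads in REH and 10.8% in 697. How far library preparation by ribodepletion or by poly(A) purification set these levels was not tested.

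The composition of the mitochondrial reads, which does not depend on scaling between the libraries, differed as well. Coding genes took 86.0% (85.9% to 86.0%) of mitochondrial reads in REH and 89.1% (89.0% to 89.1%) in 697. MT-CO1 took 20.2% in REH and 15.8% in 697, MT-ND5 7.95% and 5.33%, and MT-ND6 1.69% and 1.04%. In the other direction, MT-CO3 took 9.94% in REH and 13.6% in 697, MT-ATP6 4.64% and 7.08%, and MT-CYB 5.63% and 7.65%. Over the coding genes, the log2 ratio of these shares ran from 0.70 for MT-ND6 and 0.58 for MT-ND5 to -0.60 for MT-ATP8 and -0.61 for MT-ATP6. Some tRNA genes, with far fewer reads, lay beyond this range, such as MT-TP at 1.10. MT-ND4 (14.3% and 13.6%) and MT-ND4L (1.91% and 1.96%) changed least among the coding genes.

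These genes were among the most abundant in both libraries. MT-CO1 had the most reads of any gene in REH and in 697. In REH it was followed by MT-ND4 (rank 2) and MT-RNR2 (rank 3), and in 697 by MT-CO3 (rank 2) and MT-ND4 (rank 3). Mitochondrial genes filled 6 of the first 10 ranks in REH and 7 in 697.

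Per kb of gene length, the order of the coding genes differed between the libraries. MT-CO2 led in REH with 4382 CPM per kb (11722 in 697), and MT-CO3 led in 697 with 11815 CPM per kb (3548 in REH). MT-CO1 was the second in REH with 3669 CPM per kb and the fourth in 697 with 6961, and MT-ATP6 moved from the fifth place (1908) to the third (7087). The lowest was MT-ND2 in REH with 847 CPM per kb, followed by MT-ND6 with 900, and MT-ND6 in 697 with 1350. The counting intervals of neighbours in this order overlapped for MT-ATP6 and MT-ATP8 in REH (1893 to 1923 and 1842 to 1895 CPM per kb) and for MT-CO1 and MT-ATP8 in 697. Such an overlap does not show that the levels were equal.

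**Figure D2:**
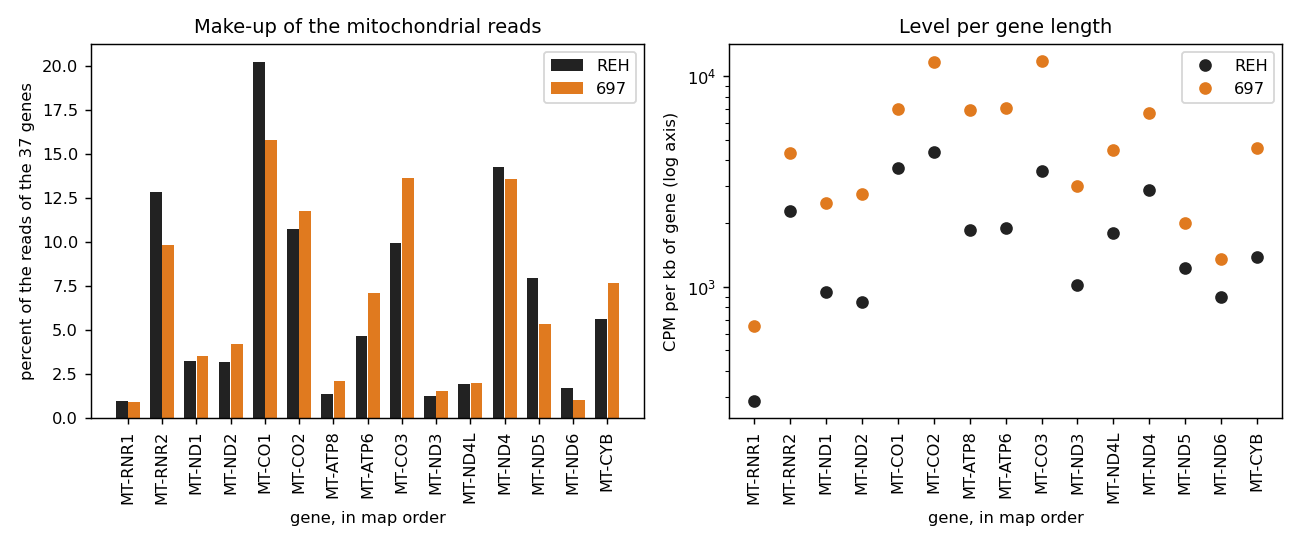
For the 13 coding and 2 rRNA genes in REH and 697, the left panel plots bars of the percent of the reads of the 37 genes, and the right panel points of CPM per kb of gene length on a log axis. MT-CO1 has the tallest bar in both libraries, and every gene lies higher in 697 per kb, with the smallest step for MT-ND6 (900 and 1350) and the widest for MT-ATP6 (1908 and 7087).

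The order also depended on which length was counted, because MT-ATP8 and MT-ATP6 share 46 bases and reads that touch both genes are not counted for either. MT-ATP8 is shown with the shared part in capitals (GENCODE 44, GRCh38, chrM:8366-8572, plus strand).
MT-ATP8: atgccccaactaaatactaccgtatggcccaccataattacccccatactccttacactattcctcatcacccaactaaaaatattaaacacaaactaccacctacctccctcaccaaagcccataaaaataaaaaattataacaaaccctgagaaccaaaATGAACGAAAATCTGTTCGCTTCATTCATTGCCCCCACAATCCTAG
Without the shared part, MT-ATP8 lay at 2402 CPM per kb in REH and 8873 in 697, which put it at rank 5 and rank 3 of the coding genes. Counted over the 88 positions where a read of 75 bases could start without touching a neighbour or matching a nuclear sequence exactly, it came to 16233 CPM per 1000 positions in 697, which is rank 1. MT-CO1 was rank 1 in REH on that scale, with 6084. The read length of the study is not given in the sources used here, so this is a scale for comparison and not a correction. The ratio between the libraries is the same on each of these length scales. Other coding neighbours overlap less, MT-ND4L and MT-ND4 by 7 bases and MT-ATP6 and MT-CO3 by 1.

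The tRNA genes had few reads. All 22 together had 3450 reads in REH and 4726 in 697, or 0.245% and 0.188% of mitochondrial reads, and 15 of them were compared. Of the 15, 11 were higher in 697 by a log2 ratio of at least 1, against 17.4% of all compared genes. The median was -1.34. MT-TP, for proline, had the most reads in REH with 1059, against 882 in 697, a ratio of -0.18 [-0.31 to -0.05] that became 0.13 with unscaled totals and 0.49 in the column of the gene's own strand. MT-TY, for tyrosine, had the most in 697 with 1226, against 829 in REH, a ratio of -1.01. MT-TC, for cysteine, had 364 reads in REH and 423 in 697 (-0.66). These 3 are minus-strand genes.

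Among plus-strand tRNA genes, MT-TF, for phenylalanine, had 264 reads in REH and 492 in 697 (-1.34), and MT-TL1, for leucine, 284 and 290 (-0.47). MT-TL2, the other leucine tRNA gene, had 120 and 263 reads (-1.57), and MT-TR, for arginine, 89 and 234 (-1.83). MT-TM, for methionine, had 49 and 134 reads, a ratio of -1.89 [-2.40 to -1.41] that was the lowest of the compared tRNA genes. MT-TL1 lies directly behind MT-RNR2 and had the smallest difference of the plus-strand tRNA genes compared. The other compared plus-strand genes were MT-TV (49 and 129 reads), MT-TI (61 and 101), MT-TG (28 and 54), MT-TH (79 and 170), MT-TS2 (66 and 111) and MT-TT (86 and 195). Their ratios lay between -1.83 (MT-TV) and -1.17 (MT-TI). In the strand columns they moved more, MT-TI to -0.15 on its own strand and -2.22 on the opposite strand, MT-TH to -0.96 on its own strand, and MT-TM to -0.12 on the opposite strand.

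The remaining tRNA genes were at or near 0. MT-TW had 2 reads in REH and 7 in 697, and MT-TD had 3 and 5. MT-TQ, MT-TA, MT-TN, MT-TS1 and MT-TK had 0 reads in the either-strand column of both libraries. Of these, MT-TN and MT-TK had 0 in the strand columns too, which allows up to 3 reads, or 0.0597 CPM in REH and 0.0812 CPM in 697. The strand columns together held 32 reads of MT-TQ in REH and 117 in 697, 24 and 33 of MT-TA, and 27 and 50 of MT-TS1. tRNA genes are short and most touch their neighbours, and a read that touches more than 1 gene is counted for none. For a read of 75 bases, 9 of the 22 had at least 1 start position free of neighbours, and these 9 held 2802 of the reads in REH and 3320 in 697. The other 13 had no such position and still held 648 and 1406 reads. At 50 bases all 22 had at least 1 position.

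The free space around the genes at 0 was uneven. The gap-to-gap span around a gene was 105 bases for MT-TN and 96 for MT-TK. Only MT-TF (647) and MT-TP (616), which border the noncoding control region, had more than MT-TN, and MT-TC had the same span as MT-TK. Their sequences are given because every 50-base window in them also occurs exactly in the nuclear genome, including the chromosome 1 stretch. MT-TF and MT-TR, of similar length and with reads, are shown for comparison. All are from GENCODE 44 on GRCh38, 5′ to 3′ on the strand of the gene, at chrM:5657-5729 (minus), chrM:8295-8364, chrM:577-647 and chrM:10405-10469 (plus).
MT-TN: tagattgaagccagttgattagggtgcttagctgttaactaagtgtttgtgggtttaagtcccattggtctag
MT-TK: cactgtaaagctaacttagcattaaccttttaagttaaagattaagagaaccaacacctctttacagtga
MT-TF: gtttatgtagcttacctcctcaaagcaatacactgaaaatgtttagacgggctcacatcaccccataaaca
MT-TR: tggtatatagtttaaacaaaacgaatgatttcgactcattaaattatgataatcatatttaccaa
MT-TN had 56 neighbour-free start positions for a read of 50 bases and MT-TK 47, but none of them lacked an exact nuclear match (a criterion added after the counts had been seen). The same was found for all 21 of MT-TQ and all 23 of MT-TS1, and for all but 1 of the 28 of MT-TA. These are the 5 genes with 0 reads in the either-strand column. The other 17 tRNA genes had between 2 and 71 positions without a nuclear match, and each had reads in both libraries, from 2 to 1059 in REH and from 5 to 1226 in 697. MT-TE, with 2 such positions, had 18 and 10 reads, whereas MT-TC had 5 positions and 364 and 423 reads. Of the 4 lengths examined, the split was seen at 50 bases only. For a read of 75 bases, 15 of the 22 genes had no such position, and 11 of these had reads. For 100 or 150 bases 20 had none, and 15 of these had reads. Which sequence of chromosome M the authors aligned to is not stated, so the matches describe GRCh38. The parts of neighbour overlap and of nuclear matches in the counts of 0 were not tested. Multimapping reads are absent from the counts, so 0 reads here do not show that a tRNA was not made. How much tRNA the library preparation kept was not tested.

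**Figure D3:**
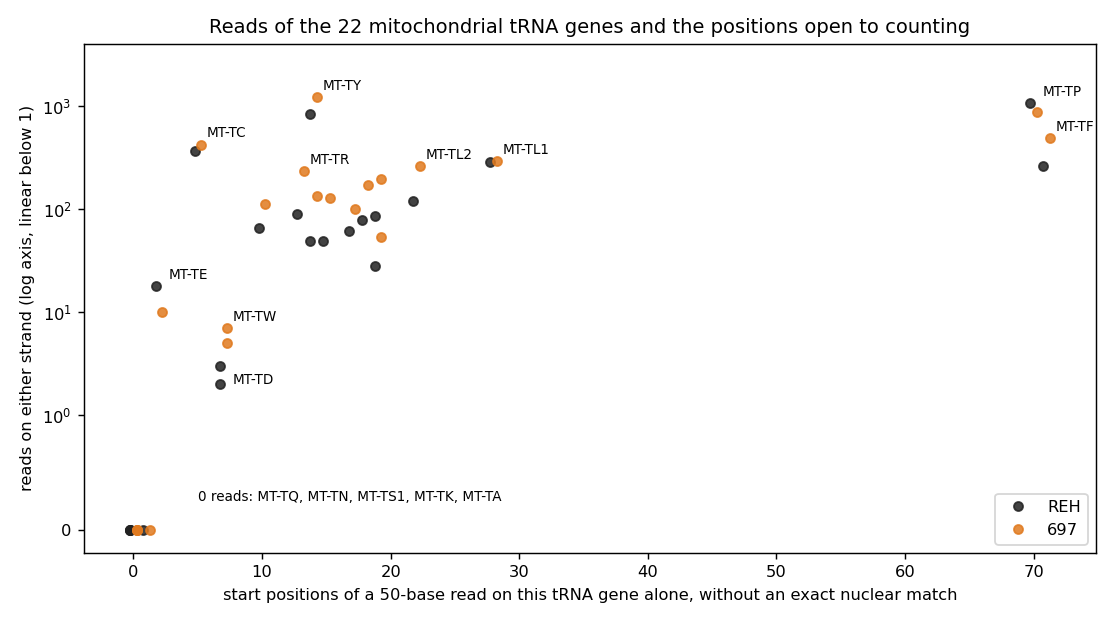
Reads on either strand are plotted for each of the 22 tRNA genes (log axis, linear below 1) against the number of start positions of a 50-base read that touches no other gene and has no exact nuclear match. The 5 genes with 0 or 1 position lie at 0 in REH and 697, and all 17 with 2 or more lie above 0.

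The strand columns of several tRNA genes stood apart from those of other genes. Reads on the gene's own strand made up a median of 50.01% of strand-assigned reads in REH and 50.03% in 697, taken over the other genes with at least 100 such reads. Fewer than 1 in 100 of these genes lay outside 20% to 80%, namely 0.636% of 13683 in REH and 0.737% of 12752 in 697. Of the tRNA genes with at least 100 such reads, 5 of 8 in REH and 10 of 15 in 697 lay outside that range. None of the 13 coding genes did.

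MT-TF had 258 reads on its strand and 6 on the opposite strand in REH, and 478 and 14 in 697, which is 97.7% and 97.2%. MT-TR was the reverse, with 1 read on its strand and 88 on the opposite strand in REH, and 1 and 233 in 697 (1.12% and 0.427%). MT-TL2, shown here, had 4 and 116 reads in REH and 4 and 259 in 697 (3.33% and 1.52%).
MT-TL2: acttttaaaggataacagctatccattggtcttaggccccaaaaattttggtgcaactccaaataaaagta
It lies at chrM:12266-12336 on the plus strand and touches MT-TS2 and MT-ND5 without a gap. MT-TP, on the minus strand, had 178 reads on its strand and 1051 on the opposite strand in REH and 94 and 854 in 697 (14.5% and 9.92%). The direction was the same in both libraries for each of these genes.

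For some tRNA genes that lie beside a gene on the opposite strand, the columns did not add up. For MT-TM, beside MT-TQ, they did, with 49 reads in REH and 134 in 697. MT-TI and MT-TQ share 3 bases on opposite strands, in capitals here (chrM:4263-4331, plus, and chrM:4329-4400, minus).
MT-TI: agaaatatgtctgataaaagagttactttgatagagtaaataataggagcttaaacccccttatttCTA
MT-TQ: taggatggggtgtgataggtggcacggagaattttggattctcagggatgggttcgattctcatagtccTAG
MT-TI had 61 reads on either strand in REH but 93 in the strand columns together, and 101 and 218 in 697. MT-TE had 18 reads on either strand and 138 in the strand columns in REH, and 10 and 157 in 697, where MT-ND6 and MT-CYB are its neighbours. A read that touches a pair of genes on opposite strands is ambiguous in the either-strand count and is assigned in a strand count. Ratios for MT-TE, 0.37 in the either-strand column, were -0.56 in the column of its own strand and -0.69 in the opposite column. MT-TT, -1.62 in the either-strand column, came to 0.61 on its own strand, with 58 reads in REH and 28 in 697.

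Coding genes were near balance, with a few exceptions that were alike in both libraries. Reads on the gene's own strand made up 71.1% of MT-ATP8 in REH and 71.0% in 697, and 66.5% and 64.6% of MT-ND4L. They made up 40.1% and 39.5% of MT-ND2 and 43.6% and 41.4% of MT-ATP6. For the remaining coding genes, in both libraries, they lay between 45.9% (MT-ND4 in 697) and 55.6% (MT-ND6 in REH).

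**Figure D4:**
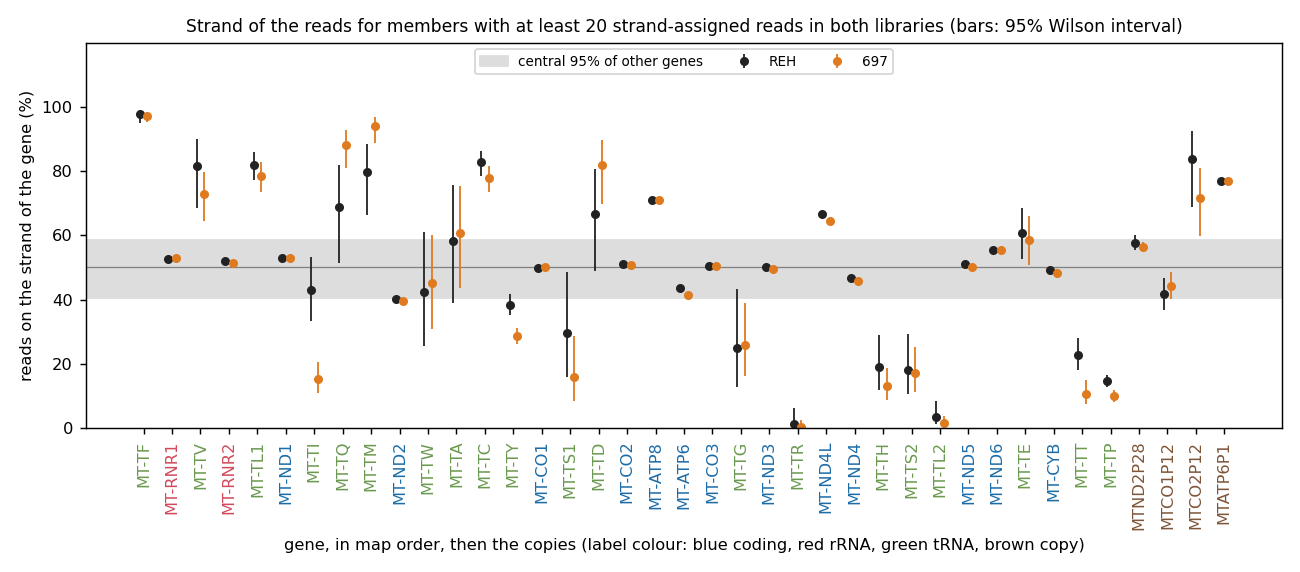
The percent of strand-assigned reads on the gene's own strand is plotted for REH and 697 for the genes with at least 20 such reads in both libraries, with 95% Wilson intervals and the central 95% of other genes as a band. Coding genes lie in the band, except MT-ATP8 and MT-ND4L above it and MT-ND2 just below, and tRNA genes spread from 0.427% (MT-TR in 697) to 97.7% (MT-TF in REH).

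The copies on chromosome 1 lie in a row at chr1:629640-634922 (GRCh38, plus strand) in the order of their parents. They are annotated as pseudogenes. Each has 97.6% to 98.7% of its aligned bases in common with its parent. All 6 passed the read minimum, with 9765 reads in REH and 25560 in 697. Of the 6, 5 were higher in 697 by a log2 ratio of at least 1, against 17.4% of all compared genes. Nearly all of these reads fell in MTATP6P1 and MTND2P28. MTATP6P1 had 7577 reads in REH (151 CPM) and 20431 in 697 (553 CPM), a ratio of -1.88 [-1.91 to -1.84], where its parent MT-ATP6 had -1.89. MTND2P28 had 1759 and 4512 reads, a ratio of -1.80 [-1.88 to -1.72], and MT-ND2 had -1.70. MTCO1P12 had 371 and 507 reads (-0.89), and MT-CO1 had -0.92.

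The other copies had few reads. MTCO2P12 had 37 in REH and 67 in 697 (-1.29), MTCO3P12 14 and 32 (-1.61), and MTATP8P1 7 and 11 (-1.06). The interval of MTATP8P1, [-2.70 to 0.40], spans 0. Each copy had a ratio whose interval held that of its parent, with the exception of MTND2P28, whose lower bound and upper bound both lay below the ratio of MT-ND2.

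Reads in a copy cannot be separated with certainty from reads of its parent. A read from a window without a difference matches both and was not counted, and the true source of a read from a window with 1 difference was not tested. Of the reads in copy and parent together, MTATP6P1 held 10.4% in REH (10.2% to 10.6%) and 10.3% in 697 (10.1% to 10.4%). MTND2P28 held 3.82% and 4.08%, and MTCO1P12 0.130% and 0.128%. The share was 0.0246% and 0.0226% in MTCO2P12, 0.0360% and 0.0208% in MTATP8P1 and 0.0100% and 0.00935% in MTCO3P12. The copies thus spanned a wide range of shares. The share of MTATP8P1, on 7 and 11 reads, moved most between the libraries relative to its size. Its intervals overlap, with 0.0174% to 0.0743% in REH and 0.0116% to 0.0373% in 697.

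Sequence difference did not order the copies by these shares. MTATP6P1 differs from MT-ATP6 at 10 of 681 bases, and MTCO1P12 from MT-CO1 at 20 of 1542, with identities of 98.5% and 98.7%. In the first 200 bases of MT-ATP6 and MTATP6P1, the 5 bases that differ are in capitals (GRCh38, chrM:8527-8726 and chr1:633696-633895, both on the plus strand).
MT-ATP6: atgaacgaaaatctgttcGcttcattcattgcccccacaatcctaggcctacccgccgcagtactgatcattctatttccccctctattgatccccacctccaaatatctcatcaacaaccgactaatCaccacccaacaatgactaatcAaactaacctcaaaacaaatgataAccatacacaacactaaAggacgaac
MTATP6P1: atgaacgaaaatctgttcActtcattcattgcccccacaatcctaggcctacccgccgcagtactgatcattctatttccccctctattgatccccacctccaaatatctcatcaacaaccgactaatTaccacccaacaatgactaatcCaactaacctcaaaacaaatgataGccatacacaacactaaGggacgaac
The stretch holds a run of more than 100 bases without a difference, followed by differences that lie closer together. Over the whole gene, 28.0% of 75-base windows had no difference, 45.8% had 1 and 26.2% had 2 or more. For MTCO1P12 these values were 36.6%, 28.8% and 34.6%. Among the coding genes, 36.6% of the 75-base windows of MT-CO1 and 34.4% of those of MT-ND2 had an exact nuclear match, against 10.5% in MT-CO2 and 0% in MT-ATP8, MT-ND3, MT-ND4L, MT-ND4 and MT-CYB. A read that lies wholly in such a window is multimapping and was not counted. MTATP6P1 also had an uneven strand split, with 77.0% of its strand-assigned reads on its own strand in REH and 76.9% in 697, while MT-ATP6 had 43.6% and 41.4%.

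**Figure D5:**
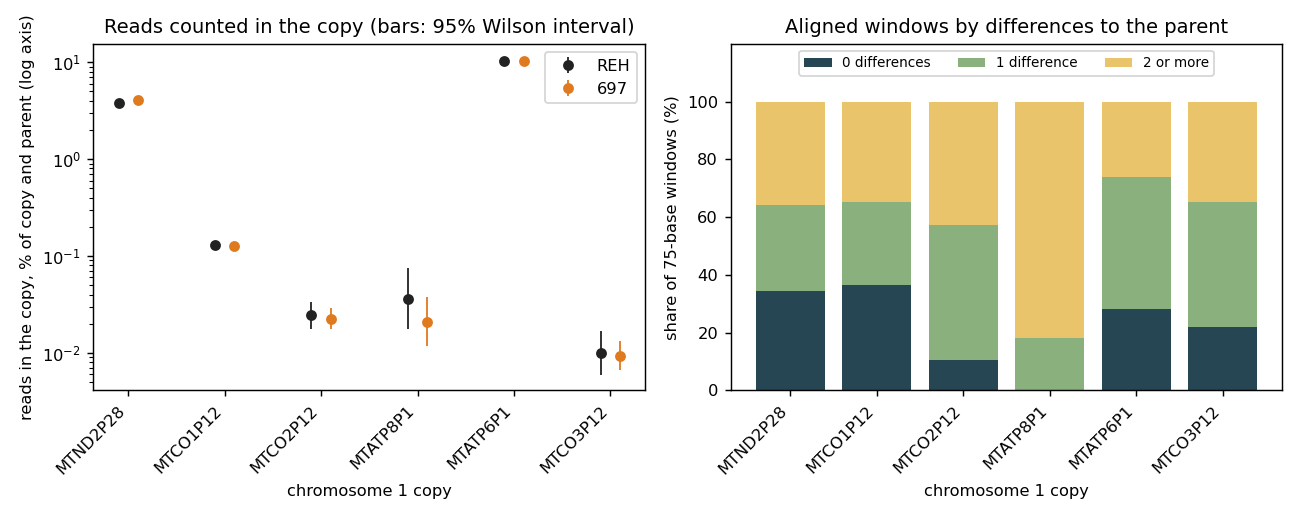
The left panel plots the percent of reads in the copy among reads in copy and parent together (log axis) for the 6 chromosome 1 copies in REH and 697, and the right panel plots the percent of 75-base windows of the parent with 0, 1, or 2 or more differences to the copy. MTATP6P1 stands highest at 10.4% and 10.3%, and MTCO3P12 lowest at 0.0100% and 0.00935%. The points of MTATP8P1 lie furthest apart (0.0360% and 0.0208%, on few reads), but their intervals overlap.

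Elsewhere in the nuclear genome, 383 other annotated copies of mitochondrial genes were found in the files, of which 98 had reads and 13 were compared. They had 3707 reads in REH and 4515 in 697. Of the 13, 3 had ratios below 0, and the median was 1.79. At a log2 ratio of at least 1, 7 were higher in REH and 3 in 697, against 22.4% and 17.4% of all compared genes. Most of the 13 reached the read minimum in REH but not in 697, which favours a ratio above 0. The filter thus helped to set this median and this split, so they describe only the 13 compared copies. The 3 with most reads were these. MTND4P12 on chromosome 5 had 2486 and 4244 of these, a ratio of -1.22 [-1.29 to -1.14], where MT-ND4 had -1.21. MTND4LP30, also on chromosome 5, had 669 reads in REH and 4 in 697, a ratio of 6.77 [5.58 to 8.82] in the direction opposite to MT-ND4L. MTCO1P40 on chromosome 17 had 22 and 102 reads, a ratio of -2.63 [-3.39 to -1.98].

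Nuclear genes that serve the mitochondrial genome differed less between the libraries. Of 108 genes in 9 lists, 107 were compared, none passed a log2 ratio of 2, and the median was -0.20, or 0.11 with unscaled totals. At a log2 ratio of at least 1, 6 were higher in 697 and 2 in REH, where 17.4% and 22.4% of all compared genes were. Those named here were chosen after their values were seen. Higher in 697 were, among others, TOP1MT, a mitochondrial topoisomerase (-1.65), the aminoacyl-tRNA synthetases GARS1 (-1.02) and IARS2 (-1.40), and the complex III and IV subunits UQCRC1 (-1.63) and COX6C (-1.17). Higher in REH were PRORP, the nuclease that cuts tRNA 5′ ends (1.03), and TK2, the mitochondrial thymidine kinase (1.28). PRORP had 148 reads in REH and 53 in 697. Its counting interval [0.58 to 1.52] and that of GARS1 [-1.05 to -0.99] span a log2 ratio of 1 in size.

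In the transcription list, 9 of 10 genes were below 0, against 47.9% of all compared genes, with a median of -0.59. Unscaled totals raised all ratios, so counts below 0 depend on the scaling. POLRMT, the mitochondrial RNA polymerase, lay at 52.7 CPM in REH and 91.6 CPM in 697 (-0.80). TFB2M, which opens the promoter for it, had a ratio of -0.81, TFAM, which binds and packages the DNA, -0.35, and the elongation factor TEFM -0.10. In the list for RNA stability and decay, with a median of -0.30, LRPPRC and its partner SLIRP, which protect mitochondrial mRNAs, had ratios of -0.30 and -0.73. The poly(A) polymerase MTPAP had -0.13, the nuclease PNPT1 -0.32 and its helicase partner SUPV3L1 0.37. In the list for RNA cleavage and tRNA maturation, with a median of -0.04, TRMT10C, a partner of PRORP, had -0.43 and ELAC2, which cuts tRNA 3′ ends, -0.58.

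For DNA replication the median was -0.24, with POLG, the DNA polymerase, at 0.02, its helicase TWNK at -0.24 and the single-strand binding protein SSBP1 at -0.52. Among the regulators of mitochondrial biogenesis the median was -0.14, with NRF1 at -0.09 and PPARGC1B at 0.89. PPARGC1A had 1 read in REH and 0 in 697 and was not compared. The listed nuclear-encoded subunits of complexes I, III, IV and V were below 0 in 20 of 23 genes, against 47.9% of all compared genes. Their median was -0.55, against -1.42 for the mitochondrial coding genes. The medians were -0.13 for complex II, whose subunits are all nuclear-encoded, -0.03 for the synthetases and 0.11 for the translation factors. The gene lists were chosen with earlier results of these data known.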

How the data were processed

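RNA sequencing covered 2 B-cell precursor leukemia lines, REH and 697. Each gave 1 library, which was assigned by the line its label names. The deposited values are raw counts per gene, with columns for reads on either strand, on the strand of the gene and on the opposite strand. According to the methods, TruSeq libraries from poly-A purified RNA were sequenced on a NextSeq instrument and aligned with STAR to hg38 by the authors. The submitters' processing notes name STAR and hg19. The annotation release and the read length are not given in the sources used here. No column of values was left unused.

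The either-strand column was used, since neither strand column exceeded the other by a factor of 2. The 19145 genes that reached 10 reads in REH or 697 were compared. Totals were scaled by TMM in edgeR 4.0.16 under R 4.3.3 (factors 1.11 and 0.899), and 0.5 reads were added for ratios. Ratio intervals are exact Clopper-Pearson and share intervals Wilson, both at 95%. They cover counting error alone, because each line has 1 library. PCR duplicates may be among the reads, which would make these intervals too narrow. A gene counted as higher at a log2 ratio of at least 2, or of at least 1 as a second rule. No test was possible with 1 library per line. Ratios and calls were tested on simulated data.

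Gene IDs were looked up in GENCODE 44 on GRCh38, where 51996 of 57773 were found. Positions and sequences are from that release, so they are not coordinates of the authors, and the chromosome M sequence used for alignment may differ from them. Exact matches were searched in windows of 50, 75, 100 and 150 bases, and copies were aligned with Biopython 1.88. The members and gene lists were chosen with earlier results of these data known. All 43 members could be named, with fixed genes of the lists and the 3 other nuclear copies with most reads. Some genes of the lists are not reported here. Alternatives were DESeq2 1.42.0 factors, unscaled totals, totals without chromosome M, each strand column, 5 reads added, minimums of 1 and 50 reads, and other sums and lengths. Start positions without a nuclear match were added after the data were seen.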

Additional observations from a re-analysis of the deposited data

Results flagged for a closer look

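Some tRNA genes had reads in the strand columns, which entered only the alternatives, while the either-strand column of the main comparison held 0. For MT-TQ, the glutamine tRNA gene, the strand columns held 32 reads in REH and 117 in 697. For MT-TA, for alanine, they held 24 reads in REH and 33 in 697. For MT-TS1, a serine tRNA gene, they held 27 reads in REH and 50 in 697. MT-TN and MT-TK had 0 reads in every column of both libraries. No control samples exist. A read that touches genes on opposite strands is ambiguous in the either-strand column and assigned in a strand column. The 3 reads that a count of 0 allows cover counting error only and set no bound on such reads.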

How the results depend on the processing

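No paired analysis was possible because REH and 697 have a single library each, and for the same reason no replicate could be left out. The mitochondrial genes as a sum were higher in 697 under every alternative. The log2 ratio of that sum, -1.28, was -1.31 with DESeq2 size factors, -0.98 with unscaled totals, -1.24 on the gene's strand and -1.28 on the opposite strand. The mitochondrial share of gene reads was 2.93% in REH and 5.66% in 697 on the gene's strand, and 2.92% and 5.82% on the opposite strand. At a log2 ratio of at least 2, 0 members were higher in 697, but 2 on the gene's strand, 4 on the opposite strand and 1 with a minimum of 1 read. At a ratio of at least 1 the count was 27, with 20 unscaled, 23 on the gene's strand, 25 on the opposite strand, 24 with a minimum of 50 reads and 29 with 1 read. Of all compared genes, 8.15% were higher in 697 at a ratio of 2 and 17.4% at 1. These shares hold for the main setting only, and those of the alternatives are not given here. The median of the coding genes was -1.45 with DESeq2, -1.11 unscaled, -1.39 on the gene's strand and -1.40 with a minimum of 50 reads. That of the rRNA genes was -1.07, -0.73 and -1.02 under the first 3 of these, and that of the chromosome 1 copies was -1.86 on the opposite strand, -1.05 on the gene's strand and -1.14 unscaled. The tRNA median was -0.96 on the gene's strand and -1.03 unscaled. The median of the nuclear pathway genes turned to 0.11 with unscaled totals. The coding share of mitochondrial reads in REH and 697 was 85.6% and 88.7% on the gene's strand, 86.4% and 89.4% on the opposite strand, and 85.4% and 88.2% with the copies in the sum. The rRNA share was 14.2% and 11.1%, 13.2% and 10.3%, and 13.7% and 10.6%. Single genes that changed sign were MT-TP (0.13 unscaled, 0.49 on its strand), MT-TE (-0.56 on its strand, -0.69 on the opposite strand), MT-TT (0.61 on its strand) and, in its share among coding genes alone, MT-ND4L (0.017). The cause of these changes was not tested. Depth limits the tRNA genes and the copies with few reads, and the spread between cultures is unknown.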
